A study of Mus musculus with 16 samples.

Results

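Gap junctions are clusters of channels that let ions and small metabolites pass directly between neighbouring cells. Each channel is made of connexin subunits, which assemble into hexameric half-channels that dock with those of the adjacent cell. The epidermis expresses several connexin genes in overlapping layers. *Gja1* encodes the most widely expressed one, *Gjb2* and *Gjb6* encode connexins of stratified and wound-edge epidermis, and *Gjb5* encodes a connexin of the keratinocyte layers that is known to form few channels on its own. The transcripts of these 4 genes were examined in mouse keratinocytes that lacked or expressed integrin α3β1, a receptor for laminin-332 (LN332), the laminin that anchors basal keratinocytes to the basement membrane.

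The members were the rows of the deposited count table whose symbol was one of these 4 names. *Gja1* and *Gjb5* were in the table, so 2 of the 4 are described among 14474 genes, and *Gjb2* and *Gjb6* were not analysed here. The cells were immortalized mouse keratinocytes (MK cells) without the α3 integrin subunit (MKα3−, labelled null) and the same null cells reconstituted with human α3 integrin (MKα3+, labelled rescued). Both were grown on collagen-coated dishes in low-calcium medium at 33 °C with 8% CO2, and were given LN332 at 0.02 mg/mL or the same volume of vehicle for 16 to 24 h. Each of the 4 combinations was sequenced in 4 replicates, which gave 16 libraries of poly(A)-selected RNA. MKα3+ is a single reconstituted line set against its null parent, so the presence of α3 and the derivation of the line cannot be told apart. The labels do not say that replicates came from separate cultures, so the p-values measure the spread between these libraries, which may be technical.

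Total counts were between 21735708 and 29338370 per library. All 9 keratinocyte markers examined were in the table, and their summed level was between 10146 and 22053 CPM (counts scaled to a common library size with TMM factors) in every library. Fibroblast markers summed to at most 40.7 CPM, endothelial markers to at most 9.74 CPM and the 1 melanocyte marker in the table to at most 3.94 CPM. The 4 immune markers in the table summed to 33.3 to 136 CPM. The mouse *Itga3* transcript was at 211 to 317 CPM in all 4 groups and did not separate the lines. Since the restored subunit is human, this mouse row does not check the labels.

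The upstream sequence of both members is shown because every expression difference below is one of transcript level. Each sequence is the stretch of 250 bases before the annotated start, from RefSeq on GRCm38.p6, written 5′ to 3′ on the strand of the gene, and RefSeq promoter entries were matched for 4 of the 5 connexin and pannexin genes described. *Gja1* (Entrez 14609) lies on the plus strand of chromosome 10 between 56377300 and 56390419, and *Gjb5* (Entrez 14622) on the minus strand of chromosome 4 between 127354809 and 127358164. Capitals mark the matches found on either strand to an AP-1 motif (TGANTCA), a GC box (GGGCGG) or a CCAAT box (CCAAT).
Gja1, chr10:56377050-56377299, plus strand: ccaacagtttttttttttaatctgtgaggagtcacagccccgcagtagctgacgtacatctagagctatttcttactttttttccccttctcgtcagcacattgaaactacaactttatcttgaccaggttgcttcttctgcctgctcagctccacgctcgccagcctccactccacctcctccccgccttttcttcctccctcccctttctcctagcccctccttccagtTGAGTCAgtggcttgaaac
Gjb5, chr4:127358165-127358414, minus strand: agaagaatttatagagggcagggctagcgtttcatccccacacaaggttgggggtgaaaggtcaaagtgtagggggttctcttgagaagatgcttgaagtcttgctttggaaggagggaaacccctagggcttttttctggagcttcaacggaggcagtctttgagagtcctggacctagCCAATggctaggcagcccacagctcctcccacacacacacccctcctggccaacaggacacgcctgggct
The *Gja1* window held 1 AP-1 match, beginning 19 bases before the start, and no GC or CCAAT box match. The *Gjb5* window held 1 CCAAT match, beginning 70 bases before the start, and neither of the other motifs. Among 32851 promoter windows of the same length, 6.75% held the AP-1 letters, 32.7% the GC box and 33.8% the CCAAT box. A match of letters is a description of the sequence and does not show that a factor binds there.

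*Gjb5* was the member that differed between the lines. In vehicle, *Gjb5* was at 20.1, 11.5, 20.6 and 10.9 CPM in the MKα3− libraries (replicates 1 to 4) and at 0.619, 0.922, 2.27 and 1.30 CPM in the MKα3+ libraries. Every MKα3− library stood above every MKα3+ library. The group levels were 15.8 ± 5.29 and 1.28 ± 0.719 CPM (SD, n = 4 each), and the fitted log2 fold change of MKα3+ against MKα3− was −3.71 (SE 0.50, 95% interval −4.77 to −2.65), which is 13.1-fold lower. The limma-voom p, adjusted over all genes by the Benjamini-Hochberg method, was 2.76e-05. A gene was called when its adjusted p was under 0.05 and its log2 fold change was beyond 0.5 in either direction. By that rule 7.56% of all genes were called lower in this contrast, and 15.7% had lower CPM values that did not overlap.

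The same difference was measured in LN332. *Gjb5* was at 18.5, 12.3, 22.9 and 8.90 CPM in the LN332-treated MKα3− libraries and at 0.884, 0.690, 0.934 and 0.599 CPM in the LN332-treated MKα3+ libraries. Again the groups did not overlap, with means of 15.7 ± 6.28 and 0.777 ± 0.158 CPM (SD, n = 4 each). The log2 fold change was −4.26 (SE 0.58, 95% interval −5.48 to −3.05), or 19.2-fold lower, with a limma-voom adjusted p of 2.48e-05. In this contrast 8.92% of all genes were called lower and 12.9% were lower without overlap. Within same-numbered libraries, the log2 ratio of MKα3+ to MKα3− was between −5.02 and −3.08 in vehicle and between −4.62 and −3.89 in LN332. *Gjb5* was lower in 4 of 4 pairs in each, as were 27.6% and 24% of all genes. Without overlap this holds however the libraries are paired, so the pairs add no further support.

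The depth behind the low values was small. *Gjb5* rested on 316 to 582 counts per library in MKα3− cells with vehicle and on 182 to 639 with LN332, but on 17 to 58 and 16 to 24 counts in the corresponding MKα3+ groups. It was therefore detected in every MKα3+ library. The highest MKα3+ vehicle library was replicate 3, and without it the log2 fold change in vehicle was −4.03, still called. Leaving out any 1 of the 16 libraries kept the call in both contrasts.

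No change of *Gjb5* with LN332 was detected in either line. In MKα3− cells the log2 fold change of LN332 against vehicle was −0.0064 (SE 0.26, 95% interval −0.55 to 0.54, limma-voom adjusted p = 0.994), with 2 of 4 same-numbered pairs higher and 2 lower. In MKα3+ cells it was −0.56 (SE 0.72, 95% interval −2.08 to 0.96, limma-voom adjusted p = 0.911), and *Gjb5* was lower in 3 of 4 pairs. The wide interval in MKα3+ cells, at 16 to 58 counts, includes a fall to a fraction of the vehicle level as well as no change. This fit did not pair the libraries. With same-numbered libraries paired as a block, the log2 fold change was −0.60 (SE 0.32, limma-voom adjusted p = 0.387), also not called. The difference between the lines in the LN332 response was −0.55 (SE 0.76, limma-voom adjusted p = 0.9999). For the whole table that interaction gave 0 calls in limma-voom, edgeR and DESeq2. In limma-voom 1.13% of genes had an unadjusted p under 0.05, fewer than evenly spread p-values would give. The reason for this low share was not tested.

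*Gja1* had the highest mean level per exon length of the connexin genes described in every group, and its CPM was much alike in all of them. In vehicle it was at 140, 133, 187 and 168 CPM in MKα3− cells and at 141, 145, 183 and 180 CPM in MKα3+ cells. In LN332 it was at 147, 156, 224 and 139 CPM in MKα3− cells and at 143, 167, 197 and 195 CPM in MKα3+ cells. All 4 groups overlapped, and replicate 3 held the highest value in each of them. The group levels were 157 ± 24.9 and 166 ± 38.8 CPM in MKα3− cells with vehicle and LN332, and 162 ± 21.9 and 176 ± 25.7 CPM in MKα3+ cells (SD, n = 4 each).

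No contrast called *Gja1*. MKα3+ against MKα3− gave a log2 fold change of 0.053 in vehicle (95% interval −0.27 to 0.38, limma-voom adjusted p = 0.833) and 0.094 in LN332 (95% interval −0.23 to 0.42, adjusted p = 0.680). LN332 against vehicle gave 0.11 in MKα3+ cells (95% interval −0.22 to 0.44, limma-voom adjusted p = 0.922) and 0.070 in MKα3− cells (95% interval −0.26 to 0.40, adjusted p = 0.899). In MKα3+ cells *Gja1* was higher with LN332 in 4 of 4 same-numbered pairs, as were 19.4% of all genes, and in MKα3− cells in 3 of 4. These intervals leave room for differences from −0.27 to 0.44 on the log2 scale and do not show that the level was equal.

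**Figure D1:**
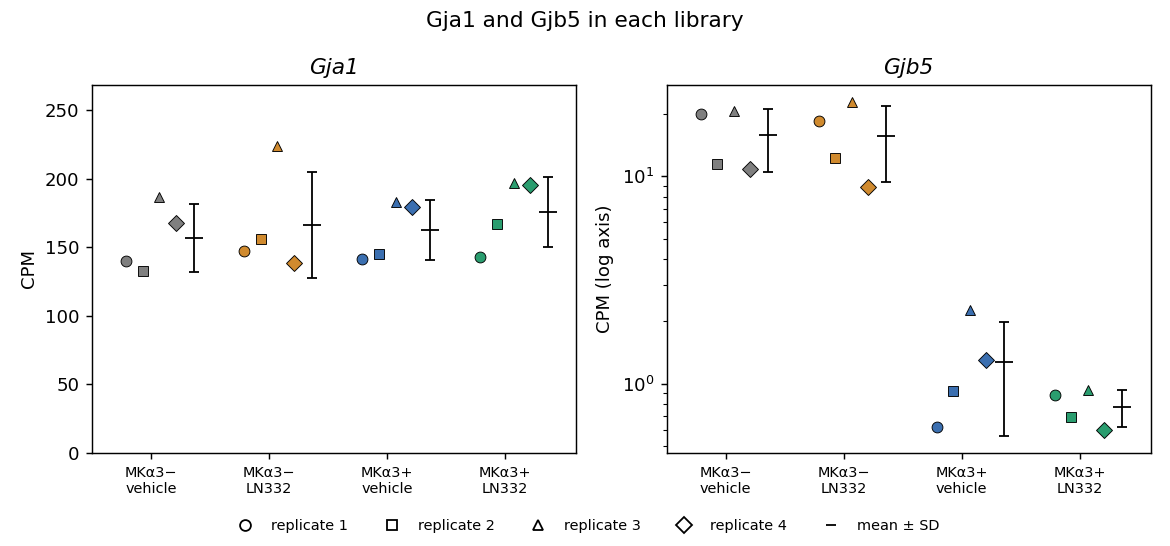
TMM-normalized CPM of *Gja1* (linear axis) and *Gjb5* (log axis) in each of the 16 libraries, with marker shape for the replicate number and bars for the mean ± SD of 4 libraries. *Gja1* stays between 133 and 224 CPM in all groups, whereas *Gjb5* is at 8.90 to 22.9 CPM in MKα3− and at 0.599 to 2.27 CPM in MKα3+ libraries.

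The order of the group levels was tested for each member with exact two-sided permutation tests of CPM, 4 libraries against 4, which cannot give a p below 0.0286. The *Gjb5* order was MKα3+ with LN332, MKα3+ with vehicle, MKα3− with LN332 and MKα3− with vehicle, from low to high. The step between the lines, from MKα3+ vehicle to MKα3− LN332, had an exact p of 0.0286, the smallest possible, and 0.0857 after adjustment over the 12 tests of both members. That step also changes the treatment, and the order was read from the same values. Groups without overlap always give the smallest p, so the test adds nothing to the lack of overlap. The steps within a line had exact p-values of 0.229 in MKα3+ and 0.971 in MKα3−. For *Gja1* none of the 6 pairs differed beyond the spread of the libraries, with exact p-values between 0.286 and 0.857.

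2 other connexin genes in the table are described here. *Gja4*, a connexin gene best known from endothelium, lies on the minus strand of chromosome 4 like *Gjb5*, and *Gjc1* encodes a connexin known from the heart and smooth muscle. In the GENCODE vM21 annotation no exon of *Gja1*, *Gjb5*, *Gja4* or *Gjc1* overlapped an exon of another gene.

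*Gja4* was not called between the lines. It was near 1 CPM in all groups, with a log2 fold change of 0.046 in vehicle (limma-voom adjusted p = 0.933) and of −0.096 in LN332.

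Along chromosome 4, 16 other tested genes within 1 Mb of *Gjb5* were examined. Connexin genes not named in this report were left out beforehand, so the set may not hold every tested gene there. In vehicle their median log2 fold change was 0.056, and 1 of them was called, *Ago4*, an Argonaute gene, at −1.22 (limma-voom adjusted p = 6.32e-04). In LN332 the median was 0.12, with *Ago4* at −1.22 and *Ago3*, another Argonaute gene, at 0.66. The shares of all genes called higher and lower were 10.9% and 7.56% in vehicle, and 11.7% and 8.92% in LN332. The single gene examined within 1 Mb of *Gja1* by the same rule, *Tbc1d32*, had a log2 fold change of −0.39 in vehicle and was not called.

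**Figure D2:**
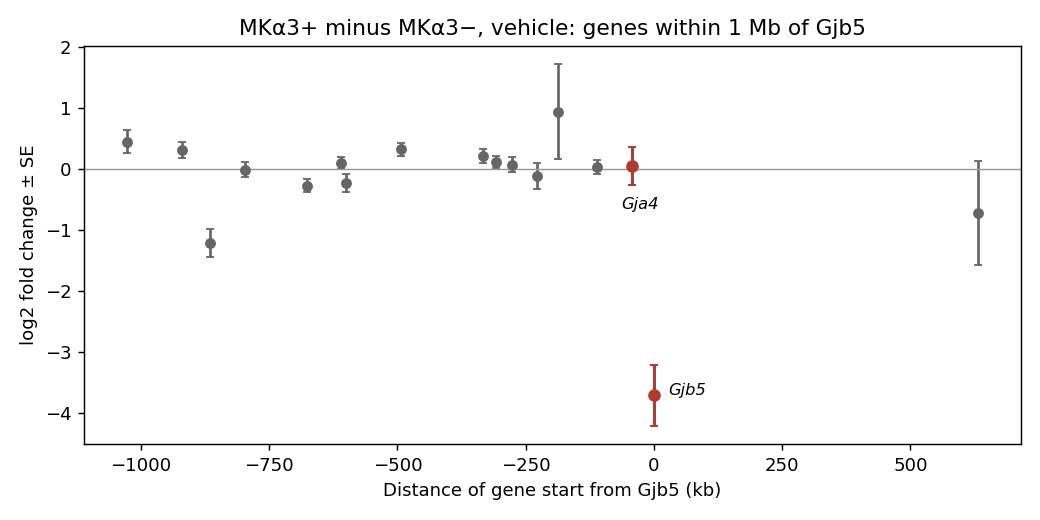
Log2 fold change (± SE) of MKα3+ against MKα3− in vehicle for *Gjb5* and 16 tested genes whose bodies lie within 1 Mb of it, against the distance of the gene start from that of *Gjb5* in kb, with connexin genes in red. *Gjb5* at −3.71 is the lowest point, and *Gja4* is at 0.046. Connexin genes not named in this report are not shown.

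No contrast with LN332 called *Gja1* or *Gjb5*. Of all genes, 0.173% were called higher with LN332 in MKα3+ cells, 0.242% in MKα3− cells and 0.919% in the average of both lines. Pairing libraries by replicate number, as a block, raised the genes called in either direction from 27 to 218, from 44 to 259 and from 196 to 363 in the same order. Neither *Gja1* nor *Gjb5* was among those called with LN332 under the block.

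**Figure D3:**
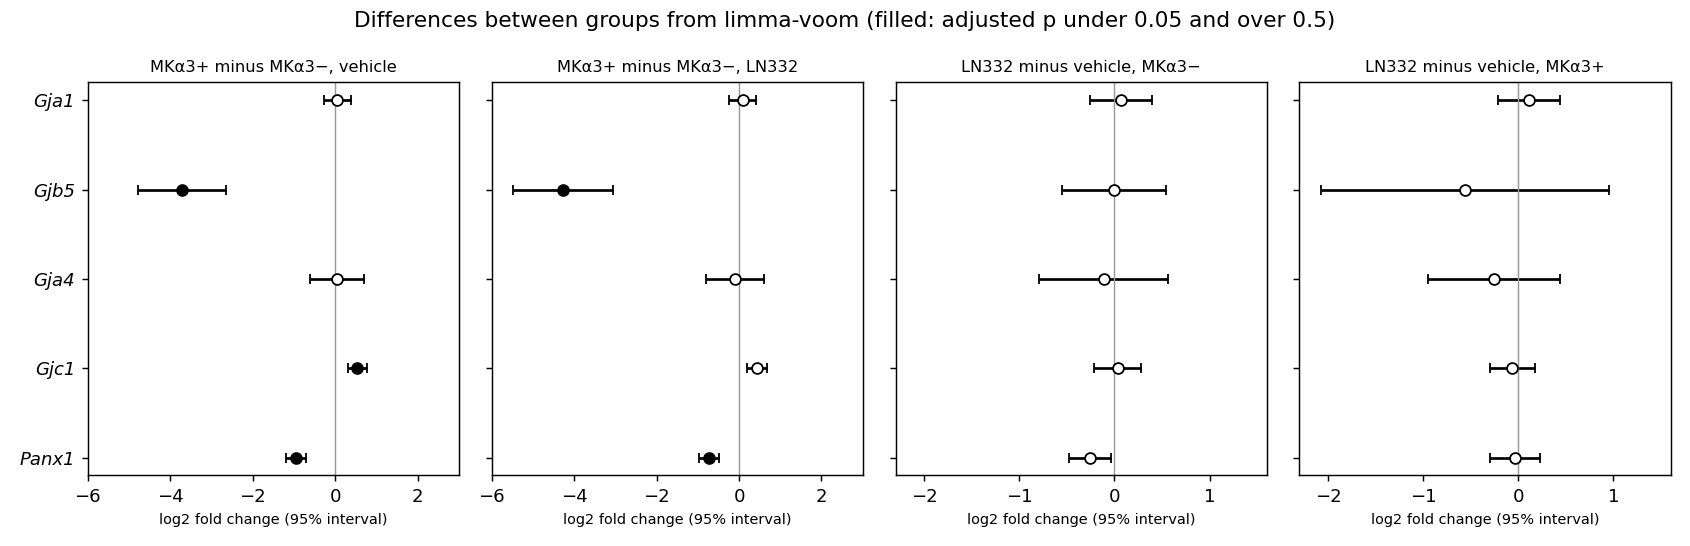
Log2 fold changes with 95% intervals from limma-voom for *Gja1*, *Gjb5*, *Gja4*, *Gjc1* and *Panx1* in the 4 contrasts, with filled points for genes called and a narrower horizontal scale for the LN332 contrasts. *Gjb5* stands at −3.71 and −4.26 between the lines, and no point is filled in the LN332 contrasts.

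*Gjc1* and the pannexin showed smaller differences between the lines. *Gjc1* was at 26.1 ± 2.88 CPM in MKα3− and 37.9 ± 3.50 CPM in MKα3+ vehicle libraries (SD, n = 4 each), a log2 fold change of 0.54 (SE 0.11, limma-voom adjusted p = 0.00164). In that contrast 10.9% of all genes were called higher. Without MKα3− vehicle replicate 4 or MKα3+ vehicle replicate 3 it was 0.48 and 0.50, just under the fold threshold. In LN332 it was 0.44 (limma-voom adjusted p = 0.00709), without overlap, as 13.6% of all genes were higher, but also under that threshold.

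*Panx1* encodes a pannexin, a channel protein of another family that releases ATP from cells, and it was the 1 of 3 pannexin genes in the table. It was lower in MKα3+ than in MKα3− cells, at 12.3 ± 1.46 against 23.7 ± 1.85 CPM in vehicle and 12.0 ± 0.589 against 19.9 ± 2.50 CPM in LN332 (SD, n = 4 each). The groups did not overlap, as 15.7% and 12.9% of all genes were lower without overlap. The log2 fold changes were −0.94 (SE 0.11, limma-voom adjusted p = 7.33e-06) and −0.72 (SE 0.12, limma-voom adjusted p = 1.69e-04).

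**Figure D4:**
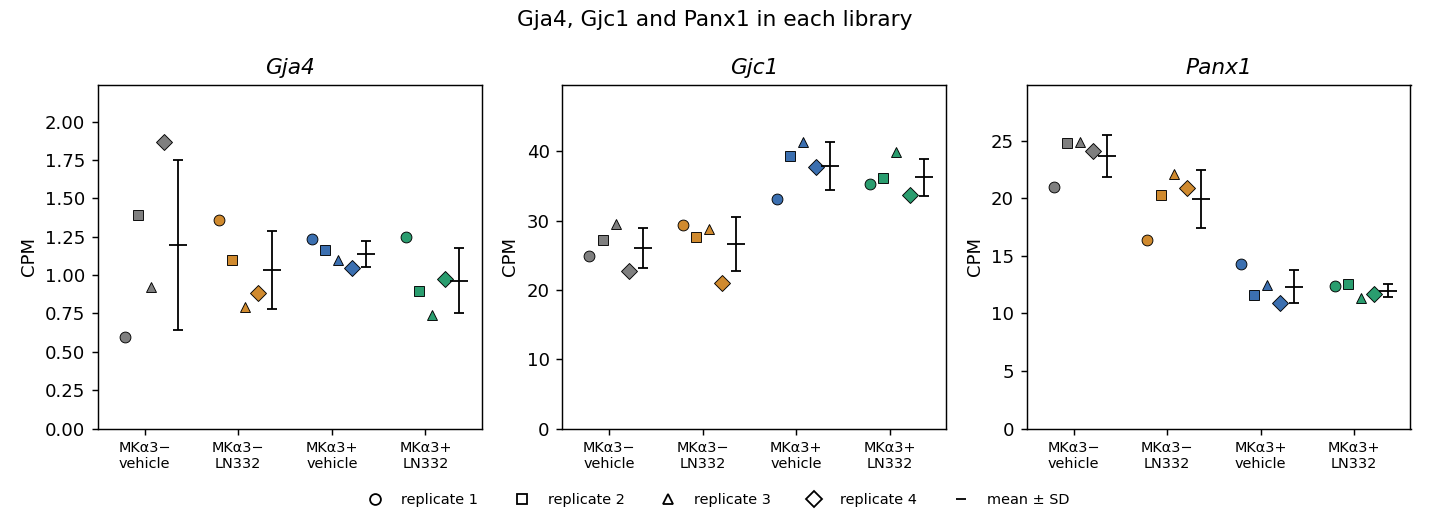
TMM-normalized CPM of *Gja4*, *Gjc1* and *Panx1* in each library, with marker shape for the replicate number and bars for the mean ± SD of 4 libraries. *Gjc1* averages 26.1 and 37.9 CPM and *Panx1* 23.7 and 12.3 CPM in MKα3− and MKα3+ vehicle libraries.

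Levels were compared between genes as RPKM, CPM per kilobase of exon, with exon lengths from the transcripts that match RefSeq. On this scale *Gja1* was at 51.0 ± 8.12 RPKM in MKα3− vehicle libraries, *Gjc1* at 9.60 ± 1.06 and *Gjb5* at 9.18 ± 3.07 (SD, n = 4 each). *Gjb5* and *Gjc1* differed there by less than their spread. In MKα3+ vehicle libraries *Gjb5* was at 0.742 ± 0.418 RPKM, against 13.9 ± 1.29 RPKM for *Gjc1* and 52.9 ± 7.15 RPKM for *Gja1*.

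The genes whose log2 CPM followed each member most closely over the 16 libraries are given as a description, among the 11801 genes whose mean log2 CPM reached 1. For *Gjb5* they were *Rnpep* (Pearson r = 0.987), *Clca2* (0.984) and *Twist2* (0.981). All of them were lower in MKα3+ cells, as in vehicle, where *Rnpep* was at 53.1 against 78.0 CPM, *Clca2* at 7.52 against 59.3 CPM and *Twist2* at 5.38 against 25.2 CPM. The 16 libraries include the line difference, and after the group means were removed the correlations with *Gjb5* were 0.832 for *Rnpep*, 0.795 for *Clca2* and 0.603 for *Twist2*. For *Gja1* they were *Actn4* (0.879), which encodes an actin-crosslinking α-actinin, *Cpe* (0.877) and *Morc2a* (0.868). With Spearman's rank correlation, 1 of these 3 genes stayed in the first 3 for *Gja1* and 0 for *Gjb5*. After the group means were removed, *Gja1* and *Gjb5* correlated at r = 0.533, over 16 libraries that share replicate numbers.

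Connexins at the membrane are bound, phosphorylated and degraded by partner proteins, of which 28 genes were listed and all 28 were in the table. Between the lines 5 were called higher and 0 lower in vehicle, and likewise 5 and 0 in LN332. Beside them, 10.9% and 11.7% of all genes were called higher, and 7.56% and 8.92% lower, in vehicle and LN332. The median log2 fold change of the list was 0.16 and 0.17, beside 0.0056 and 0.0062 for all genes. *Tjp1*, which encodes the scaffold ZO-1 that binds the C-terminus of the *Gja1* product, was higher by 0.65 in vehicle and 0.62 in LN332 (limma-voom adjusted p = 5.41e-04 and 8.41e-04). *Smurf2*, a ubiquitin ligase gene, was higher by 0.76 and 0.78, and *Prkca*, a protein kinase C gene, by 0.58 and 0.57. The *Prkca* calls were lost without MKα3− replicate 1 of the same treatment, at 0.44 in each. *Ctnnb1*, which encodes β-catenin, was the other called in vehicle, at 0.50, close to the fold threshold. It stayed called in 5 of the 16 fits that left out 1 library, and was not called in 17 of 27 alternatives, among them DESeq2 (0.50), library size alone (0.49) and quality weights (0.46).

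*Dbn1*, which encodes drebrin, an actin-binding partner of the *Gja1* product, differed most in this list. It was at 5.83 ± 2.02 CPM in MKα3− and 42.1 ± 8.25 CPM in MKα3+ vehicle libraries (SD, n = 4 each), a log2 fold change of 2.89 (limma-voom adjusted p = 1.90e-07), and the value in LN332 was 3.01. With LN332 *Dbn1* was higher by 0.99 in MKα3+ cells (limma-voom adjusted p = 0.0439), a call that was lost without MKα3− vehicle replicate 2, without MKα3+ vehicle replicate 2, 3 or 4, without any 1 of the MKα3+ LN332 libraries, in edgeR (0.97, adjusted p = 0.131) and in limma-voom with library size alone (0.91, adjusted p = 0.0634). The values with 1 library left out were 0.90 or more. The average over both lines was 0.93 (limma-voom adjusted p = 0.00556). *Cdh1*, which encodes E-cadherin, was called higher in LN332 alone, at 0.82, and the difference between the treatments was not called.

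Of 14 transcription factor genes known to act on connexin genes, all 14 were in the table, and 2 were called higher and 2 lower in vehicle, against 0 higher and 3 lower in LN332. Of all genes, 10.9% were called higher and 7.56% lower in vehicle, and 11.7% and 8.92% in LN332. The median log2 fold change was 0.19 and −0.054. *Tfap2c*, an AP-2 factor gene of surface ectoderm, was at 2.91 ± 1.23 CPM in MKα3− and 0.218 ± 0.0915 CPM in MKα3+ vehicle libraries (SD, n = 4 each), with log2 fold changes of −3.64 in vehicle and −3.39 in LN332 (limma-voom adjusted p = 1.03e-04 and 2.42e-04). The MKα3+ values rest on 3 to 10 counts per library. *Tfap2a*, another AP-2 factor gene on the list, was not called, at 71.4 ± 6.36 and 80.8 ± 5.48 CPM in MKα3− and MKα3+ vehicle libraries. *Grhl3*, a gene of epidermal barrier formation, was lower by −0.64 and −0.97, and its call in vehicle was lost without MKα3− replicate 2 (−0.55) or MKα3+ replicate 1 (−0.45) and with quality weights (−0.48). *Trp63*, the p63 gene of basal keratinocytes, was lower by −0.91 in LN332 and by −0.68 in vehicle without being called. The AP-1 genes *Fos* and *Jund* were higher by 1.30 and 0.72 in vehicle, and the *Fos* call was lost in edgeR, in DESeq2 (1.12 and 1.11), and without MKα3− vehicle replicate 2, 3 or 4 or MKα3+ vehicle replicate 1, at values between 1.07 and 1.21. With LN332, *Grhl3* was higher by 0.59 in the average of both lines (limma-voom adjusted p = 0.0233), a call that was lost without MKα3− vehicle replicate 3, MKα3+ vehicle replicate 1 or MKα3+ LN332 replicate 2, 3 or 4, at values between 0.50 and 0.57.

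Keratins and differentiation genes gave the state of the cells beside these values. Of 4 stress keratin genes, 1 was called higher in MKα3+ cells in vehicle, against 10.9% of all genes. In LN332 1 was called higher and 1 lower, against 11.7% and 8.92% of all genes. The list medians were −0.21 in vehicle and −0.38 in LN332. *Krt17* was higher by 0.78 in vehicle and 0.71 in LN332. *Krt6a* was called lower in LN332, at −0.89, and was at −0.77 in vehicle without being called. The *Krt6a* call was lost without MKα3− LN332 replicate 3 or 4 or MKα3+ LN332 replicate 1, 2 or 3, at values between −0.90 and −0.59. *Krt16* was higher with LN332 in the average of both lines, at 0.55, a call that was lost with library size alone and with quality weights (0.47 in each). It was also lost without MKα3− vehicle replicate 1, MKα3− LN332 replicate 3 or 4, MKα3+ vehicle replicate 2 or MKα3+ LN332 replicate 2, at values between 0.45 and 0.52.

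Of 12 differentiation genes 7 were in the table, of which 1 was called lower in MKα3+ cells in vehicle and 3 in LN332, against 7.56% and 8.92% of all genes. The list medians were −0.24 and −1.04. *Sprr1b* and *Tgm1*, not called, had higher means in MKα3+ cells, at 26.9 against 14.4 CPM and 20.9 against 17.6 CPM in vehicle. *Sprr1a* and *Tgm3*, also not called, had lower means in MKα3+ cells. *Sbsn*, a suprabasal gene, was at −1.76 and −1.75. *Ivl*, which encodes involucrin of the cornified envelope, was at −1.16 in LN332, and *Krt10*, a suprabasal keratin gene, at −0.54. The *Krt10* call was lost in the fit of only the groups compared (−0.55) and when any 1 of 9 libraries was left out, at values between −0.57 and −0.45. The *Ivl* call was lost without MKα3− LN332 replicate 3 or MKα3+ LN332 replicate 1 or 2, at values between −1.08 and −0.95. Without MKα3+ LN332 replicate 2 both were lost, and 1 of the 3 was left.

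Markers of the keratinocyte itself and of other cell types also moved with the line. Of 9 keratinocyte markers, 2 were called lower in MKα3+ cells in vehicle and 3 in LN332, against 7.56% and 8.92% of all genes. None was called higher, and the list medians were −0.54 and −0.76. *Lamb3*, which encodes the β3 chain of LN332, was at −0.66 and −0.76. *Krt15*, a basal keratin gene, was at −2.64 in vehicle and was called there. *Krt5*, another basal keratin gene, was at −0.80 in LN332 and was called there, as was *Trp63*, which is also on the list of transcription factors. The summed level of this list overlapped between the lines, at 10146 to 16426 CPM in MKα3− and 10243 to 15496 CPM in MKα3+ vehicle libraries. Of 6 melanocyte markers only *Pmel* was in the table. *Pmel* was called lower in MKα3+ cells by −1.26 in vehicle and −0.93 in LN332, at 2.81 to 3.94 against 0.827 to 1.71 CPM in vehicle.

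Of 5 simple epithelium markers, *Krt7*, *Krt8* and *Krt19* were called higher in MKα3+ cells in both treatments, against 10.9% and 11.7% of all genes. *Krt18* and *Epcam* were not called. In MKα3− and MKα3+ vehicle libraries *Krt18* averaged 349 and 375 CPM, and *Epcam* 320 and 369 CPM. The 5 markers summed to 2216 to 2890 CPM in MKα3− and 4421 to 4842 CPM in MKα3+ vehicle libraries. *Krt8* was also called higher with LN332 in MKα3− cells, at 0.55 (limma-voom adjusted p = 0.0326). That call was lost with library size alone (0.47), with quality weights (0.49), with only the groups compared (0.55) and when any 1 of 8 libraries was left out, at values between 0.47 and 0.60. Of 5 immune markers 4 were in the table, and *Cd3e* was not. Those 4 summed to 33.3 to 62.0 CPM in MKα3− and 63.0 to 136 CPM in MKα3+ vehicle libraries, and to 33.4 to 44.9 and 61.4 to 128 CPM in LN332. *Itgam* (3.09) and *Cd74* (0.80) were called higher in MKα3+ cells in vehicle, and *Cd74* (0.83) in LN332, against 10.9% and 11.7% of all genes. *Itgam* was at 2.11 ± 1.86 against 15.3 ± 11.6 CPM in vehicle (SD, n = 4 each). Its call held in 7 of 16 fits with 1 library left out. *Adgre1*, not called, was at 2.39 ± 2.53 against 21.1 ± 15.6 CPM there. No fibroblast or endothelial marker was called between the lines in either treatment. The part of these markers in the *Gjb5* difference was not tested. In bulk RNA, fewer cells that express *Gjb5* and less *Gjb5* RNA per cell cannot be told apart.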

How the data were processed

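RNA from 16 libraries of MK cells was sequenced after poly(A) selection. Per the labels, base calls were converted with bcl2fastq 2.20, and the authors aligned the reads to mm10, counted them per gene with featureCounts on Entrez gene models and deposited raw counts of 14474 genes, in which 0 rows named no gene and 284 genes had no symbol. Whether the counting used strand is not given in the sources used here. Every gene had over 0.5 CPM in at least 6 libraries, so the filter of over 0.5 CPM in at least 3 libraries removed 0 genes.

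Groups were taken from the sample labels. TMM factors came from edgeR 4.0.16, and a single limma-voom fit (limma 3.58.1, R 4.3.3) of all 16 libraries, with a coefficient per group, gave every contrast. Adjusted p-values use the Benjamini-Hochberg method over all genes. Exact permutation tests used all 70 splits. RPKM used exon lengths from GENCODE vM21. Replicates of a group differed by a chi-square of at least 5.43 per degree of freedom, so none agreed within sampling noise. The steps were tested on simulated data.

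The members and lists were chosen with earlier results of these data known. Genes named are the members, 2 other connexins, the pannexin in the table, genes of the fixed lists called with LN332 or among the 4 largest called between the lines, and the 3 genes most like each member. *Tbc1d32*, *Ago3*, *Ago4*, *Ctnnb1*, *Itga3*, *Tfap2a*, *Sprr1a*, *Sprr1b*, *Tgm1* and *Tgm3*, and genes named as markers, were chosen outside this rule. Some genes the rule would name are not reported here. The replicate numbers come from the sample titles. Deviations of same-numbered libraries from their group means correlated at 0.241 to 0.441 between the lines in vehicle. For LN332 in MKα3+ and MKα3− cells they correlated at 0.331 to 0.707 and 0.257 to 0.700. Between the lines in LN332 the range was −0.0864 to 0.510, with 3 of 4 pairs over 0.1. Means over all groups were 0.385 for the same number and −0.117 for different numbers, and 16 of 16 libraries matched their own number best. The numbers were taken to pair the libraries, least clearly between the lines in LN332. The main fit did not use the pairing.

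Alternatives were the quasi-likelihood test of edgeR, DESeq2 1.42.0, scaling by DESeq2 size factors or by library size, no filter, a minimum of 10 counts in every library, the replicate number as a block, quality weights per sample, a fit of the compared groups alone, other fold thresholds and the omission of each library.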

Additional observations from a re-analysis of the deposited data

How the results depend on the processing

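The *Gjb5* calls between the lines held under all 27 alternatives in each treatment, with log2 fold changes between −4.03 and −3.41 in vehicle and between −4.47 and −4.05 in LN332, and *Gja1* was called in none. Values near 0 changed sign. *Gja1* with LN332 in MKα3− cells was −0.0070 when scaled by library size alone and ranged from −0.078 to 0.16 with 1 library left out, *Gja1* between the lines in vehicle from −0.022 to 0.14 and its interaction from −0.048 to 0.19, and *Gjb5* with LN332 in MKα3− cells from −0.22 to 0.20. *Gja4* between the lines in vehicle was −0.073 in edgeR, −0.082 in DESeq2 and −0.070 with quality weights. *Panx1* with LN332 in MKα3+ cells was 0.0040 with quality weights, and *Gjc1* with LN332 in MKα3− cells −0.042 with library size alone. With 1 library left out, *Gja4* ranged from −0.24 to 0.30 and −0.23 to 0.045 between the lines in vehicle and LN332, in LN332 against vehicle from −0.40 to 0.14 in MKα3− cells and in the interaction from −0.40 to 0.14. *Gjc1* then ranged from −0.027 to 0.13 with LN332 in MKα3− cells and from −0.045 to 0.035 in the average, and *Panx1* from −0.093 to 0.041 with LN332 in MKα3+ cells. Counts of genes called were 4115 with no minimum fold and 1362 with a minimum of 1 between the lines in vehicle (2345 to 2754 with 1 library left out), and 4654 and 1345 in LN332 (2590 to 3338). For LN332 in MKα3+ cells they were 4 in edgeR, 123 in DESeq2, 3 with library size alone, 218 with the replicate block, 454 with quality weights, 106 with only the groups compared and 5 with a minimum of 1 (0 to 47). For LN332 in MKα3− cells they were 165 in DESeq2, 74 with library size alone, 259 with the block, 123 with quality weights, 1 with only the groups compared and 6 with a minimum of 1 (1 to 150). For the average they were 363 with the block, 464 with quality weights, 637 with no minimum fold and 13 with a minimum of 1 (114 to 321). Library size alone moved the median of all genes with LN332 to between −0.085 and −0.082 and the split of calls from 35 higher and 9 lower to 24 and 50 in MKα3− cells, and from 133 and 63 to 84 and 174 in the average. The block changed no call of *Gja1*, *Gjb5*, *Gja4*, *Gjc1* or *Panx1*. The cause of these changes was not tested. *Tfap2c* could not be fitted with at least 10 counts in every library, and depth limits what can be said of *Gjb5* in MKα3+ cells.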
